A study of Homo sapiens with 6 samples.

Results

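The solute carrier genes of SH-SY5Y cells, which encode the membrane carriers that move amino acids, sugars, ions, metals and metabolites, were examined with and without methamphetamine (METH). SH-SY5Y cells come from a human neuroblastoma and served in the study as a model of dopaminergic neurons. Transcripts were sequenced from 3 libraries of wild-type SH-SY5Y cells treated with 2 mM METH and from 3 libraries given PBS, both for 24 h, while the time field of the sample labels reads day 0. All libraries came from 1 cell line, the labels do not say whether they came from separate cultures, and no other dose or time was compared. The deposited table holds 4101 genes, each marked as changed by the authors in this same comparison. Members were chosen by name only, as the rows whose symbol begins with SLC, a number, A and a number, or with SLCO and a number. Of 69 rows with such a name, 5 antisense genes and 4 genes that the rule excepts (SLC18A2, SLC6A2, SLC7A11 and SLC3A2) were left out, which gave 60 carrier genes. All 60 are annotated as protein-coding, in 31 families, and GENCODE release 29 holds 348 protein-coding genes that meet the same rule. The 60 genes are thus the 17.2% of annotated carrier genes that passed the authors' selection, and the other carrier genes were not analysed here.

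Solute carriers are membrane proteins that do not split ATP themselves. Uniporters let a substrate run down its own gradient, while symporters and exchangers couple it to sodium, protons, chloride or another substrate, so many of them depend on the sodium pump of the plasma membrane or the proton pump of vesicles and lysosomes. In neurons they load transmitters into vesicles, clear transmitters from outside the cell, set chloride and calcium, and bring in amino acids, glucose and lactate, and the SLC25 family moves metabolites across the inner membrane of mitochondria.

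Expression was given as CPM, that is, reads of a gene scaled to the total of its library, without correction for gene length. Library values follow the order PBS 10, PBS 11 and PBS 12, after the columns of the table, and METH 1, METH 2 and METH 3. The denominators of the 6 libraries were between 85.67 and 110.77 M reads, of which 19.3% to 24.3% fell on the genes of the table, the lowest share being that of METH 3. Of 15 markers of noradrenergic neuroblastoma cells, 7 are in the table, with a summed level of 1005 to 1082 CPM in the PBS libraries and 974 to 1088 CPM in the METH libraries. Of these, 2 were higher and 5 lower with METH. Of 11 markers of substrate-adherent cells, 3 are in the table, with sums of 276 to 481 CPM with PBS and 544 to 810 CPM with METH. Almost all of that sum was VIM (mean 372 CPM with PBS and 681 CPM with METH). VIM and SNAI2 were higher with METH, and NOTCH2 did not pass (log2 fold change -0.43, limma adjusted p = 0.168). None of 5 glial markers is in the table. The part of these markers in the results on carriers was not tested.

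Promoter sequences of 47 carrier genes were matched in RefSeq (GRCh38.p14), each covering 250 bases before and 50 bases after the start of a transcript. Both strands of their 70 promoters were searched for 4 short motifs, those of CREB, of ATF4 with C/EBP, of AP-1 and of E-box factors. The cAMP response element TGACGTCA was found in 3 of the 70 carrier promoters (3 genes) and in 1.85% of all 35116 RefSeq promoters. The C/EBP-ATF composite letters TGATGCAA were found in 1 of the 70 (1 gene) and in 0.866% of all promoters. The AP-1 letters TGACTCA were found in 4 of the 70 (SLC26A1, SLC43A2, SLC50A1 and SLC6A17) and in 4.95% of all promoters. The E-box CACGTG was found in 5 of the 70 (SLC12A7, SLC25A33, SLC29A1, SLC2A13 and SLC39A11) and in 7.26% of all promoters. Whether the counts in carrier promoters differ from the shares of all promoters was not tested. These motifs do not overlap one another in the windows printed here. Shown are the 3 windows with a cAMP response element, the only window with the composite letters and the AP-1 window of SLC6A17. SLC6A17 was chosen for its large change, which was toward higher levels. Of the other carrier genes with the AP-1 letters, SLC26A1 was lower with METH (log2 fold change -1.38), and SLC43A2 and SLC50A1 did not pass. The motif is in capitals with 20 bases on each side, written in the direction of the gene, so that a motif on the opposite strand appears as its reverse complement. A match is a description of these letters and not a binding site.
SLC45A1 (chr1:8318064-8318111, plus strand): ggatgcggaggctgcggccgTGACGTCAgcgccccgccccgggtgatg
SLC31A1 (chr9:113221432-113221479, plus strand): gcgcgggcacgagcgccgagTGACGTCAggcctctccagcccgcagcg
SLC25A33 (chr1:9539396-9539443, plus strand): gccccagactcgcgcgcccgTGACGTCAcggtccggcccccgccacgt
SLC1A4 (chr2:64989372-64989419, plus strand): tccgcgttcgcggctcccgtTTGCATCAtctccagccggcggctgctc
SLC6A17 (chr1:110150433-110150479, plus strand): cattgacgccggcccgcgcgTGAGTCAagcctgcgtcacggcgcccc

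Differences between the METH-treatment group and the PBS-treatment group were tested by limma, a linear model that shares the estimate of spread between genes, on log2(CPM + 0.1). P-values were adjusted by Benjamini-Hochberg over the whole table, and 0.1, the level used in the study, was the threshold. SE is the standard error of limma. Fold changes are differences on this log2 scale, METH minus PBS, and understate the change of genes near 0.1 CPM. Of the 60 carrier genes, 27 (45%) were up-regulated and 12 (20%) down-regulated, where 33.3% and 35.8% of all genes of the table were. In all, 39 carrier genes (65%) passed the threshold beside 69.1% of the table. So the share of carrier genes called was near the background, and the split between directions lay further toward higher levels. The median log2 fold change of the 60 genes was 0.55 and that of all 4101 genes was 0.11. The table median was 0.08 after the libraries were scaled to the same median ratio. It was 0.29 when only genes averaging 1 CPM or more with PBS or with METH were kept. Of the 60 carrier genes, 55 reached that level, and their own median is not given here. The median of all 60 lay nearer to 0.29 than to 0.11. With this minimum, 25 carrier genes were called higher and 11 lower, beside 1267 and 1306 of all genes. No test of the difference between carrier genes and the table was made. All 3 METH libraries lay above all 3 PBS libraries for 24 carrier genes (40%, against 31.0% of the table) and below them for 12 (20%, against 33.0%), so that 36 (60%) had groups without overlap, beside 64.0% of the table.

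Sizes were mostly moderate. Among the 39 carrier genes past the threshold, 7 were at least 2-fold higher and 2 at least 2-fold lower on the limma scale, which is 23.1% of them, beside 37.3% of all genes called. Because every gene of the table had been selected on these libraries, adjustment within it is lenient, and only 36 of the 39 genes (24 higher and 12 lower) had an unadjusted p-value under 0.05. Adjusted as if 20000 genes had been tested, 4 carrier genes passed, SLC17A7, SLC44A3, SLC6A17 and SLC37A1, all of them higher with METH, where 10.0% of the table passed. The smallest 2-sided p-value that an exact permutation of 3 and 3 libraries allows is 0.1. In RNA from whole cultures, fewer cells that express a gene and less of its RNA per cell cannot be told apart.

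**Figure D1:**
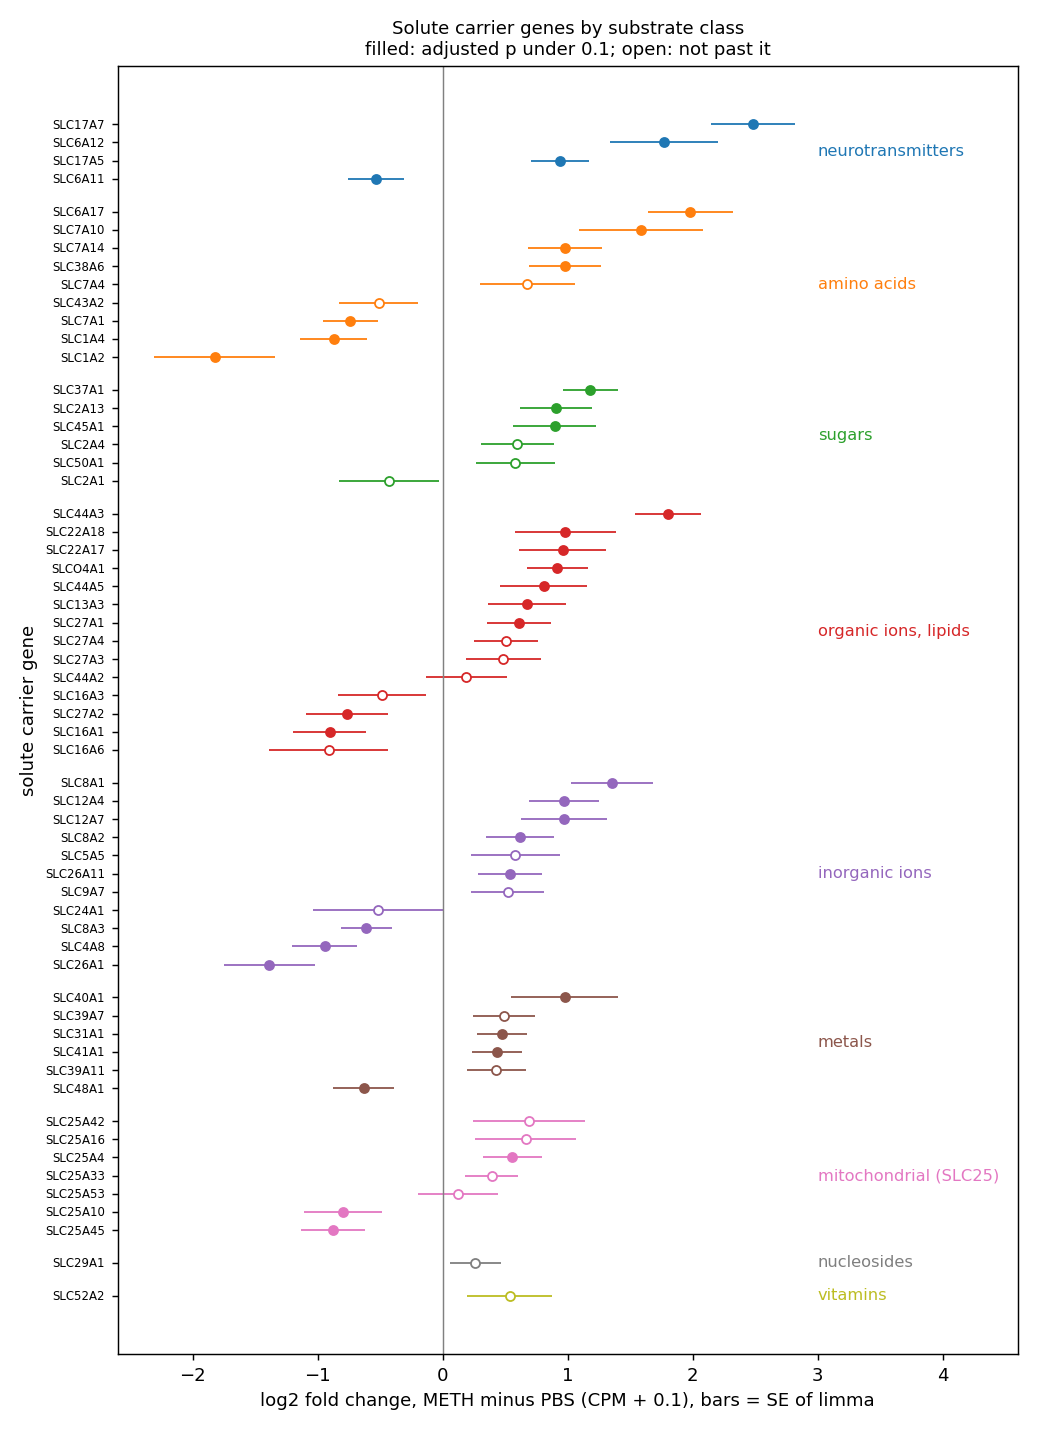
Log2 fold change of 59 carrier genes (x axis, METH minus PBS on log2(CPM + 0.1), bars are limma standard errors), grouped by substrate class; filled points passed an adjusted p-value of 0.1 and open points did not. Of the filled points, 26 lie to the right of 0 and 12 to the left, from -1.82 for SLC1A2 to 2.48 for SLC17A7.

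Carriers of neurotransmitters showed the largest median change of the classes, 1.36 on the log2 scale, with 3 of 4 members up-regulated and 1 down-regulated. This ranking depends on how genes were assigned. SLC18A2 and SLC6A2, which the rule excepts, would belong to this class, and SLC1A2 and SLC6A17 were counted with the amino acid carriers. SLC17A7 encodes VGLUT1, the transporter that loads glutamate into synaptic vesicles (ENSG00000104888, chromosome 19, 49429401 to 49442360, GENCODE release 29 on GRCh38, as for the positions that follow). Its levels were 0.641, 0.852 and 0.633 CPM with PBS and 5.18, 5.72 and 2.82 CPM with METH, from 59 to 74 reads and 302 to 520 reads. The lowest METH library, METH 3, lay above every PBS library. SLC17A7 rose from 0.709 ± 0.124 CPM (SD, n = 3) to 4.58 ± 1.54 CPM (SD, n = 3, log2 fold change 2.48, SE 0.338, limma adjusted p = 0.00406; 0.0198 over 20000 tests). SLC6A12 encodes BGT1, which takes up betaine and GABA with sodium and chloride (ENSG00000111181, chromosome 12, 190077 to 214570). Its levels were 1.12, 2.17 and 2.27 CPM with PBS and 9.76, 7.55 and 3.34 CPM with METH (log2 fold change 1.77, SE 0.432, limma adjusted p = 0.0220). The groups did not overlap, and the METH libraries spread widely, METH 3 being again the lowest. Sialin, the product of SLC17A5, exports sialic acid from lysosomes and has also been described as a vesicular carrier of acidic amino acids. SLC17A5 stood at 4.05, 3.82 and 4.34 CPM with PBS and at 6.69, 8.67 and 8.50 CPM with METH (log2 fold change 0.94, limma adjusted p = 0.0224), with METH 1 the lowest of the METH libraries and no overlap. The GABA transporter GAT3 is the product of SLC6A11, which was lower with METH, 5.56, 5.71 and 5.60 CPM against 3.67, 4.16 and 3.79 CPM (log2 fold change -0.53, limma adjusted p = 0.0764). Its PBS libraries were close together and all METH libraries lay below them. SLC17A7, SLC6A12 and SLC17A5 passed the threshold with each library left out in turn. SLC6A11 missed it without METH 1, METH 2, METH 3, PBS 10 or PBS 12, where the limma adjusted p was 0.193, 0.167, 0.139, 0.105 and 0.127.

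Amino acid carriers moved in both directions, with 4 of 9 up-regulated and 3 down-regulated. The 2 that carry the most RNA per kilobase of exon were both lower with METH. SLC7A1 encodes CAT1, the main importer of arginine and lysine (chromosome 13, 29509410 to 29595688), and had 43.5, 63.0 and 44.2 CPM with PBS and 28.8, 26.9 and 33.7 CPM with METH. It fell from 50.2 ± 11.05 CPM (SD, n = 3) to 29.8 ± 3.50 CPM (SD, n = 3, log2 fold change -0.74, SE 0.218, limma adjusted p = 0.0340). The groups did not overlap, and PBS 11 stood above the other PBS libraries. SLC1A4 encodes ASCT1, an exchanger of alanine, serine and cysteine (chromosome 2, 64988477 to 65023865), and is the gene whose promoter holds the composite letters printed above. Its levels were 12.6, 24.9 and 17.4 CPM with PBS and 9.15, 9.96 and 9.65 CPM with METH (log2 fold change -0.87, SE 0.267, limma adjusted p = 0.0367). The METH libraries of SLC1A4 were tightly grouped below PBS libraries that were not.

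The amino acid carriers that rose had less RNA per kilobase than these. SLC7A14, a lysosomal member of the cationic amino acid carrier family, had 1.83, 2.79 and 1.55 CPM with PBS and 3.96, 4.54 and 3.64 CPM with METH (log2 fold change 0.98, limma adjusted p = 0.0353). SLC38A6, of the family that carries glutamine and other neutral amino acids, had 2.06, 2.29 and 1.50 CPM and 3.61, 4.87 and 3.33 CPM (log2 fold change 0.98, limma adjusted p = 0.0339). In both genes METH 2 was the highest library and the groups did not overlap. A further 3 genes past the threshold had a mean under 1 CPM in both groups and were picked for description after their values were seen. SLC6A17 encodes NTT4, a carrier of neutral amino acids in synaptic vesicles (chromosome 1, 110150486 to 110202202), and had 0.0810, 0.184 and 0.183 CPM with PBS and 0.875, 0.958 and 0.766 CPM with METH, or 9 to 17 and 75 to 87 reads (log2 fold change 1.98, SE 0.341, limma adjusted p = 0.00897). Every METH library of SLC6A17 was far above every PBS library for a gene at this level, and it passed over 20000 tests (limma adjusted p = 0.0437). SLC7A10, which encodes the glycine and D-serine carrier Asc-1, had 0.0900, 0.276 and 0.0320 CPM and 0.665, 0.782 and 0.280 CPM (log2 fold change 1.59, limma adjusted p = 0.0385). SLC7A10 rose with groups that nearly touched, PBS 11 at the top of one and METH 3 at the bottom of the other. SLC1A2, which encodes the glutamate uptake carrier EAAT2 that is best known from astrocytes, had 0.253, 0.783 and 0.580 CPM and 0.187, 0.0220 and 0.0370 CPM, from 28 to 68 reads and 2 to 16 reads (log2 fold change -1.82, limma adjusted p = 0.0269). SLC17A7, for a vesicular glutamate carrier, was thus higher and SLC1A2, for one of the plasma membrane, was lower, the latter from few reads. SLC1A2 had the lowest level per kilobase of the 60 carrier genes (0.0136 CPM per kb). These are single genes and do not speak for vesicular or plasma membrane glutamate carriers as groups.

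Among the other amino acid carriers, SLC7A4 (log2 fold change 0.68) and SLC43A2, which encodes the neutral amino acid carrier LAT4 (log2 fold change -0.51), did not pass the threshold (limma adjusted p = 0.133 and 0.161), and their groups overlapped. SLC43A2 did pass without PBS 10 (limma adjusted p = 0.0426), with edgeR and TMM (adjusted p = 0.0880) and with DESeq2 (adjusted p = 0.0946). SLC7A4 passed without METH 3 (limma adjusted p = 0.0787). SLC6A17 and SLC1A2 stayed past the threshold with each library left out. Without METH 2 the limma adjusted p was 0.121 for SLC7A14, 0.129 for SLC38A6, 0.126 for SLC7A1, 0.101 for SLC1A4 and 0.120 for SLC7A10, and without METH 1 it was 0.103 for SLC7A1, 0.104 for SLC1A4 and 0.108 for SLC7A10, the last gene also missing the threshold without PBS 12 (0.109).

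Sugar carriers were up-regulated in 3 of 6 members, and none was down-regulated. SLC37A1 encodes a sugar phosphate exchanger of the endoplasmic reticulum (ENSG00000160190, chromosome 21, 42496008 to 42581440). Its levels were 10.5, 11.9 and 9.45 CPM with PBS and 25.3, 28.0 and 19.7 CPM with METH. SLC37A1 rose from 10.6 ± 1.22 CPM (SD, n = 3) to 24.3 ± 4.23 CPM (SD, n = 3, log2 fold change 1.18, SE 0.219, limma adjusted p = 0.0103; 0.0501 over 20000 tests). The lowest METH library lay well above the highest PBS library. SLC2A13, which encodes the proton-coupled myo-inositol carrier HMIT, had 0.948, 0.990 and 0.698 CPM with PBS and 1.90, 1.74 and 1.53 CPM with METH (log2 fold change 0.91, limma adjusted p = 0.0406). SLC45A1, a proton-coupled sugar carrier of brain and one of the genes with a cAMP response element, had 2.17, 4.67 and 4.68 CPM and 7.75, 6.69 and 6.13 CPM (log2 fold change 0.90, limma adjusted p = 0.0566). Neither gene had overlapping groups, and PBS 10 was the lowest library of SLC45A1 by far.

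The 2 sugar carriers with the most RNA per kilobase did not pass the threshold. SLC50A1, the human member of the SWEET sugar carriers, had 55.7, 123 and 90.9 CPM with PBS and 153, 143 and 95.4 CPM with METH (log2 fold change 0.58, limma adjusted p = 0.124). SLC2A1 encodes GLUT1, the common glucose carrier of the plasma membrane, and had 48.7, 151 and 71.8 CPM and 72.9, 70.9 and 41.8 CPM (log2 fold change -0.43, limma adjusted p = 0.322). In both genes the groups overlapped and the PBS libraries alone ranged more than 2-fold, from PBS 10 at the bottom to PBS 11 at the top. SLC2A4, which encodes the insulin-responsive GLUT4, had METH libraries (2.74, 2.80 and 2.08 CPM) above its PBS libraries (1.30, 1.64 and 2.04 CPM) and, with a log2 fold change of 0.60, just missed the threshold (limma adjusted p = 0.1004). SLC37A1 passed with each library left out. SLC2A13 and SLC45A1 missed the threshold without METH 1 (limma adjusted p = 0.124 and 0.148) or METH 2 (0.122 and 0.135), and SLC45A1 also without PBS 10 (0.102).

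The largest class, with 15 members, carries organic anions and cations, monocarboxylates, fatty acids and choline, and 8 of them were up-regulated and 2 down-regulated. SLC44A3 belongs to the choline carrier-like family (ENSG00000143036, chromosome 1, 94820342 to 94895246). Its levels were 2.26, 3.57 and 2.27 CPM with PBS and 9.34, 9.27 and 9.72 CPM with METH. SLC44A3 rose from 2.70 ± 0.756 CPM (SD, n = 3) to 9.44 ± 0.244 CPM (SD, n = 3, log2 fold change 1.80, SE 0.261, limma adjusted p = 0.00530; 0.0259 over 20000 tests). Its METH libraries were nearly equal, METH 3 included. The other members of its family in the table were SLC44A5, up-regulated with overlapping groups (log2 fold change 0.81, limma adjusted p = 0.0783), and SLC44A2, which had the second highest RNA level per kilobase of this class. SLC44A2 had 52.2, 112 and 50.9 CPM with PBS and 95.0, 74.2 and 62.7 CPM with METH (log2 fold change 0.19, limma adjusted p = 0.580), the highest library being PBS 11.

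SLCO4A1 encodes OATP4A1, an organic anion carrier that takes thyroid hormones (chromosome 20, 62642445 to 62685785), and had 29.8, 49.6 and 35.6 CPM with PBS and 80.3, 76.0 and 58.4 CPM with METH (log2 fold change 0.92, SE 0.243, limma adjusted p = 0.0267). Every METH library of SLCO4A1 lay above every PBS library. SLC22A17, known as a receptor for lipocalin-2, had the most RNA per kilobase of the class, 53.2, 106 and 89.9 CPM with PBS and 200.1, 193 and 96.6 CPM with METH (log2 fold change 0.96, limma adjusted p = 0.0552). METH 3 was far below the other METH libraries of SLC22A17 and below PBS 11. SLC22A18 (log2 fold change 0.98, limma adjusted p = 0.0726) and SLC13A3, which encodes the dicarboxylate carrier NaDC3 (log2 fold change 0.67, limma adjusted p = 0.0917), rose with overlapping groups as well.

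Carriers of monocarboxylates and of fatty acids were read next. SLC16A1 encodes MCT1, which carries lactate, pyruvate and ketone bodies (chromosome 1, 112911847 to 112957013), and had 33.3, 22.6 and 19.5 CPM with PBS and 12.02, 10.1 and 18.2 CPM with METH (log2 fold change -0.90, SE 0.289, limma adjusted p = 0.0404). The groups did not overlap, although METH 3 came close to PBS 12. SLC16A3, which encodes the lactate exporter MCT4, and SLC16A6 had negative log2 fold changes that did not pass (-0.49 and -0.91, limma adjusted p = 0.217 and 0.115). The fatty acid carriers of family SLC27 held members with either sign. SLC27A1, which encodes FATP1, had 4.29, 6.82 and 4.90 CPM with PBS and 8.49, 8.78 and 6.97 CPM with METH (log2 fold change 0.61, limma adjusted p = 0.0748). SLC27A2, which encodes FATP2, a carrier and very long chain acyl-CoA synthetase, had 1.63, 0.979 and 1.84 CPM and 0.805, 0.693 and 0.925 CPM (log2 fold change -0.77, limma adjusted p = 0.0784). Groups of both genes were apart, in opposite directions. SLC27A4 and SLC27A3 had log2 fold changes of 0.51 and 0.49 and did not pass (limma adjusted p = 0.105 and 0.155). SLC44A3 and SLCO4A1 passed with each library left out, while SLC27A1, SLC27A2, SLC22A17, SLC22A18 and SLC13A3 all missed the threshold without METH 1, METH 2, PBS 10 or PBS 12, with limma adjusted p-values from 0.107 (SLC22A17 without PBS 12) to 0.239 (SLC13A3 without PBS 10). SLC16A1 missed it without METH 1 (0.111) or METH 2 (0.140), and SLC44A5 without any of METH 1, METH 2, METH 3, PBS 11 or PBS 12 (0.109 to 0.205). With edgeR and TMM, SLC44A5 and SLC13A3 did not pass (adjusted p = 0.132 and 0.105), nor did SLC44A5 with DESeq2 (adjusted p = 0.103).

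**Figure D2:**
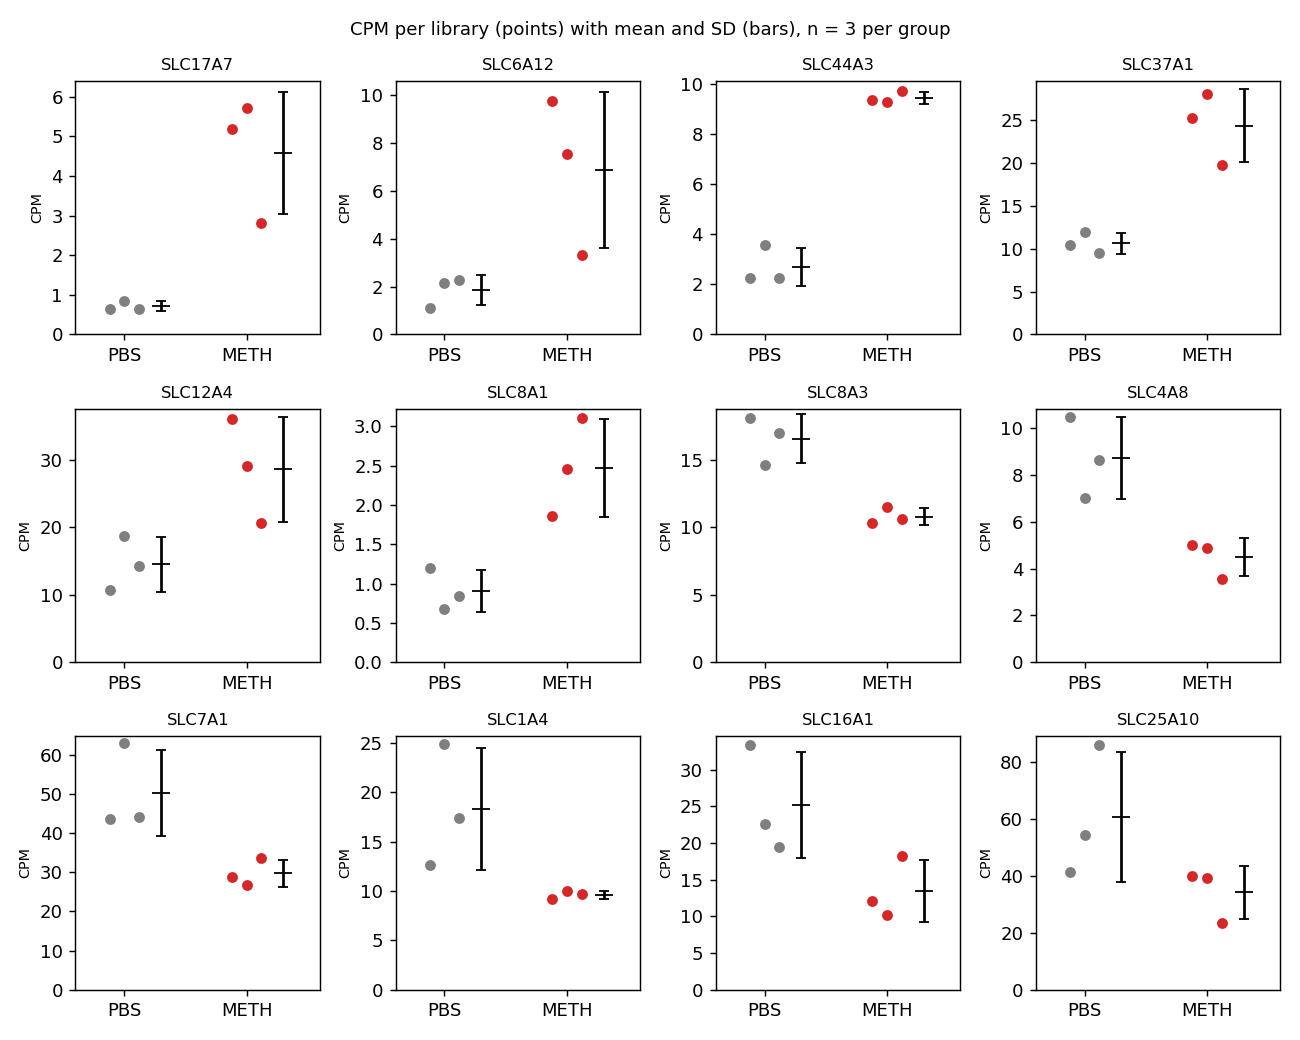
CPM of 12 carrier genes in each library (y axis, linear from 0; grey points PBS, red points METH), with the group mean and SD beside the points (n = 3 per group). In all 12 panels the groups do not overlap; METH 3 is the METH library nearest to PBS for SLC17A7, SLC6A12, SLC37A1, SLC12A4, SLC7A1 and SLC16A1.

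Carriers of inorganic ions were up-regulated in 5 of 11 members and down-regulated in 3. The sodium-calcium exchangers, which drive calcium out of the cell on the sodium gradient, were all past the threshold and did not share a direction. SLC8A1, which encodes NCX1 (chromosome 2, 40097270 to 40611053), had 1.201, 0.680 and 0.837 CPM with PBS and 1.86, 2.46 and 3.10 CPM with METH (log2 fold change 1.36, SE 0.328, limma adjusted p = 0.0216). SLC8A2, which encodes NCX2, had 9.79, 20.4 and 13.7 CPM and 23.0, 20.5 and 21.2 CPM (log2 fold change 0.62, limma adjusted p = 0.0833). SLC8A3, which encodes NCX3 (chromosome 14, 70044217 to 70189070), fell from 18.1, 14.6 and 17.0 CPM to 10.3, 11.5 and 10.6 CPM (log2 fold change -0.61, SE 0.201, limma adjusted p = 0.0438). NCX1 RNA was highest in METH 3, NCX3 libraries were tight within each group, and for NCX2 only a narrow gap parted PBS 11 from METH 2. The antisense gene SLC8A1-AS1 shares 9.3% of the exonic length of SLC8A1 and moved with it, 0.388, 0.207 and 0.333 CPM with PBS and 0.654, 1.34 and 2.69 CPM with METH (log2 fold change 1.85, limma adjusted p = 0.0250). Whether reads were counted by strand is not given in the sources used here, so reads from the shared stretch cannot be told apart.

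The potassium-chloride cotransporters, which let chloride leave the cell, were both up-regulated. SLC12A4, which encodes KCC1 (chromosome 16, 67943474 to 67969601), had 10.6, 18.8 and 14.2 CPM with PBS and 36.1, 29.1 and 20.6 CPM with METH (log2 fold change 0.97, SE 0.283, limma adjusted p = 0.0334). SLC12A7, which encodes KCC4, had 3.34, 7.01 and 3.75 CPM and 10.8, 10.1 and 6.23 CPM (log2 fold change 0.97, limma adjusted p = 0.0520). SLC12A4 groups were apart, whereas METH 3 of SLC12A7 lay below PBS 11. Among anion carriers, SLC26A1, which encodes the sulfate exchanger SAT1, had 0.749, 1.44 and 1.48 CPM with PBS and 0.444, 0.462 and 0.280 CPM with METH (log2 fold change -1.38, SE 0.366, limma adjusted p = 0.0267). Its relative SLC26A11, also a sulfate carrier and the ion carrier with the most RNA per kilobase, had 10.5, 17.9 and 15.2 CPM and 23.0, 22.9 and 16.9 CPM (log2 fold change 0.54, limma adjusted p = 0.0943). The SLC26A1 groups were apart with METH lower, while the SLC26A11 groups overlapped with METH higher. SLC4A8, which encodes NDCBE, a sodium-driven exchanger of chloride for bicarbonate (chromosome 12, 51391317 to 51515763), had 10.5, 7.003 and 8.65 CPM with PBS and 5.02, 4.89 and 3.54 CPM with METH (log2 fold change -0.94, SE 0.260, limma adjusted p = 0.0292), again without overlap. The iodide carrier gene SLC5A5, the Golgi sodium-proton exchanger gene SLC9A7 and the potassium-dependent sodium-calcium exchanger gene SLC24A1 had log2 fold changes of 0.58, 0.52 and -0.51 and did not pass (limma adjusted p = 0.157, 0.133 and 0.362).

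SLC8A1, SLC4A8 and SLC26A1 passed the threshold with each library left out. Without METH 1 or METH 2 the limma adjusted p was 0.110 or 0.102 for SLC12A4, 0.146 or 0.148 for SLC12A7, 0.131 or 0.122 for SLC8A3, 0.192 or 0.167 for SLC8A2 and 0.231 or 0.239 for SLC26A11. SLC12A7 also missed the threshold without PBS 12 (0.134), SLC26A11 without PBS 10 (0.235) or PBS 12 (0.148), and SLC8A2 without METH 3 (0.121), PBS 10 (0.201) or PBS 12 (0.161).

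Metal carriers were up-regulated in 3 of 6 members and down-regulated in 1. SLC31A1, which encodes the copper importer CTR1 and holds a cAMP response element in its promoter, had 14.2, 12.6 and 12.2 CPM with PBS and 16.1, 18.4 and 20.02 CPM with METH (log2 fold change 0.48, SE 0.200, limma adjusted p = 0.0748). SLC41A1, a magnesium carrier gene, had 10.3, 9.35 and 9.82 CPM and 13.1, 14.6 and 12.2 CPM (log2 fold change 0.43, limma adjusted p = 0.0910). For both, PBS libraries were close together and lay below all METH libraries. SLC48A1, which encodes the heme carrier HRG1, had 9.61, 15.6 and 12.7 CPM with PBS and 7.87, 9.02 and 7.11 CPM with METH (log2 fold change -0.63, limma adjusted p = 0.0647). SLC40A1, which encodes the iron exporter ferroportin, rose with overlapping groups, since METH 1 stood at the level of PBS (1.66, 0.852 and 1.28 CPM with PBS, 1.31, 3.85 and 3.06 CPM with METH, log2 fold change 0.98, limma adjusted p = 0.0820). The zinc carrier gene SLC39A7, which encodes ZIP7 of the endoplasmic reticulum and has the most RNA per kilobase of the class, had 50.9, 67.6 and 76.8 CPM with PBS and 105, 103 and 68.5 CPM with METH and did not pass (log2 fold change 0.49, limma adjusted p = 0.107), nor did SLC39A11 of the same family (log2 fold change 0.43, limma adjusted p = 0.125). SLC39A7 did pass after median scaling (limma adjusted p = 0.0928), without METH 3 (0.0651) and with DESeq2 (adjusted p = 0.0960). Each of the 4 calls on metal carriers was lost without METH 2 and without PBS 12, with limma adjusted p-values of 0.198 and 0.146 for SLC31A1, 0.267 and 0.146 for SLC41A1, 0.130 and 0.129 for SLC48A1 and 0.240 and 0.152 for SLC40A1. All were lost without METH 3 as well (0.117 to 0.169), all but SLC40A1 without METH 1 (0.131 to 0.196), all but SLC31A1 without PBS 11 (0.125 to 0.173), and SLC41A1 also without PBS 10 (0.104) and after median scaling (0.103). With edgeR and TMM, SLC31A1 and SLC41A1 did not pass (adjusted p = 0.111 and 0.130), nor did SLC41A1 with DESeq2 (adjusted p = 0.104).

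Of the 7 mitochondrial carriers of family SLC25, 1 was up-regulated and 2 were down-regulated. SLC25A4 encodes ANT1, which exchanges ADP for ATP across the inner membrane, and had 25.6, 43.3 and 35.3 CPM with PBS and 56.0, 50.6 and 44.1 CPM with METH (log2 fold change 0.56, limma adjusted p = 0.0763), with METH 3 just above PBS 11. SLC25A10 encodes the dicarboxylate carrier, which exchanges malate or succinate for phosphate, and had 41.4, 54.5 and 85.9 CPM with PBS and 39.8, 39.1 and 23.6 CPM with METH (log2 fold change -0.80, limma adjusted p = 0.0651). PBS 10 lay just above METH 1, PBS 12 stood high, and 46.6% of the exonic length of SLC25A10 is shared on the same strand with the annotated gene AC139530.2, so its reads are uncertain. SLC25A45 had 3.70, 5.24 and 4.78 CPM and 2.26, 2.49 and 2.53 CPM (log2 fold change -0.87, SE 0.256, limma adjusted p = 0.0335) and its groups were clearly apart. The other 4 members did not pass, namely the coenzyme A carrier gene SLC25A42 (log2 fold change 0.69), SLC25A16 (0.67), the pyrimidine nucleotide carrier gene SLC25A33 (0.39) and SLC25A53 (0.12), with limma adjusted p-values of 0.173, 0.153, 0.124 and 0.716. SLC25A33, whose promoter holds a cAMP response element and an E-box, had every METH library (15.9, 14.6 and 12.4 CPM) above every PBS library (9.68, 12.2 and 10.7 CPM). Without METH 1 or METH 2 the limma adjusted p was 0.202 or 0.183 for SLC25A4, 0.104 or 0.116 for SLC25A10 and 0.104 or 0.103 for SLC25A45. SLC25A4 also missed the threshold without PBS 10 (0.172) or PBS 12 (0.135), and SLC25A10 without METH 3 (0.149) or PBS 12 (0.179).

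The classes of nucleosides and vitamins held 1 member each. SLC29A1 encodes ENT1, the equilibrative nucleoside carrier that moves adenosine, and had 65.7, 80.1 and 82.2 CPM with PBS and 101, 93.1 and 79.3 CPM with METH (log2 fold change 0.26, limma adjusted p = 0.235). SLC52A2, a riboflavin carrier gene, had 51.5, 115 and 110.1 CPM and 155, 138 and 93.0 CPM (log2 fold change 0.54, limma adjusted p = 0.166). In both the groups overlapped, METH 3 falling among the PBS libraries, and SLC52A2 shares 34.7% of its exonic length with FBXL6 on the other strand.

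To compare levels between genes, CPM was divided by the exonic length in kilobases. The 60 carrier genes ranged from 0.0136 CPM per kb for SLC1A2 to 47.1 for SLC50A1 over the 6 libraries. After SLC50A1 came SLC52A2 (35.9), SLC22A17 (28.8), SLC39A7 (27.6), SLC29A1 (19.0), SLC25A10 (18.1), SLC2A1 (16.1), SLC44A2 (14.3) and SLCO4A1 (13.6), all in CPM per kb. Of these 9 genes only SLC22A17, SLCO4A1 and SLC25A10 passed the threshold between the groups. The order differed between the groups. SLC25A10 was the gene at rank 3 with PBS (23.1 CPM per kb) and at rank 9 with METH (13.0), and SLC22A17 was at rank 5 with PBS (19.4 CPM per kb) and at rank 3 with METH (38.1). Over the 6 libraries together each gene overlapped its next neighbour in range, for example SLC50A1 at 23.8 to 65.6 and SLC52A2 at 16.7 to 50.5 CPM per kb. Within libraries, 2 of the 59 neighbouring pairs kept their order in all 6, SLC50A1 above SLC52A2 and SLC39A7 above SLC29A1. Most genes with large fold changes stood in the lower part of the order, SLC17A7 at 0.439, SLC6A12 at 0.827, SLC8A1 at 0.0770 and SLC6A17 at 0.0764 CPM per kb, whereas SLC44A3 (2.12) and SLC37A1 (2.56) stood in its upper part.

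**Figure D3:**
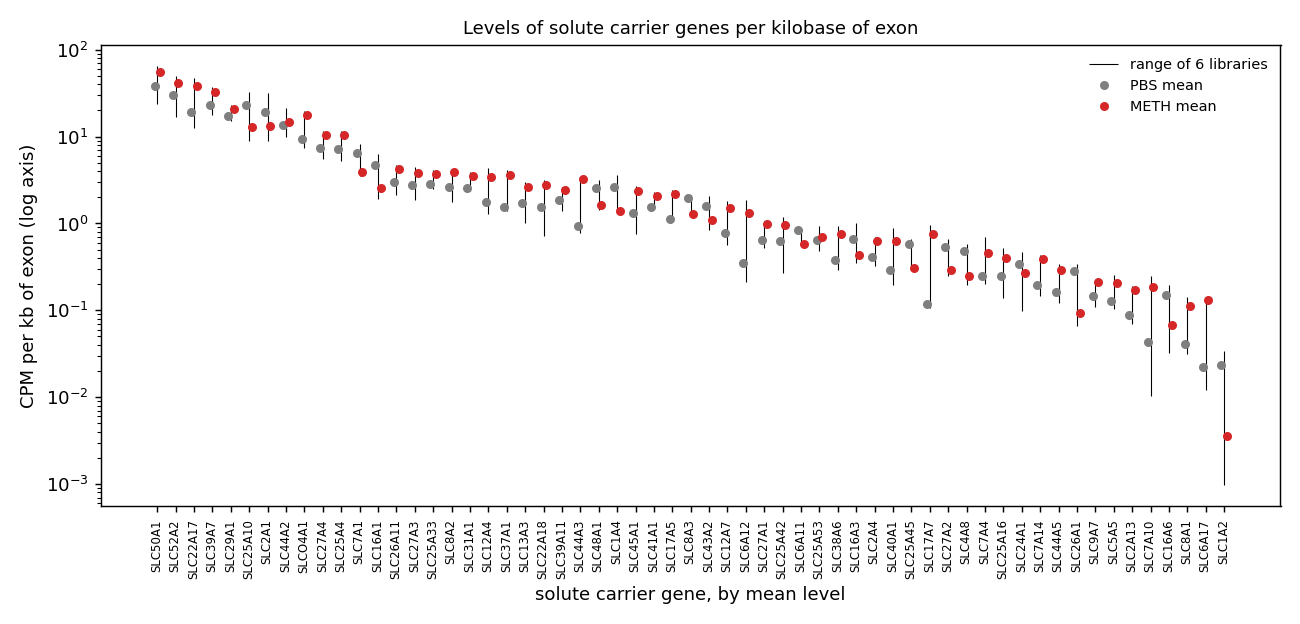
Level of 59 carrier genes in CPM per kilobase of exon (y axis, log scale), ordered by the mean over 6 libraries; points are group means (grey PBS, red METH) and lines the range of the 6 libraries. The order runs from 47.1 for SLC50A1 to 0.0136 CPM per kb for SLC1A2, and neighbouring lines overlap throughout.

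The libraries were not alike across carrier genes. PBS 10 was the lowest PBS library in 37 of the 60 genes (61.7%, where it was so in 44.7% of all genes of the table) and PBS 11 the highest in 39 (65%, against 41.8%). METH 3 was the lowest METH library in 40 (66.7%, against 52.3%) and METH 1 the highest in 31 (51.7%, against 44.3%). Among the 43 genes with a positive log2 fold change METH 3 was the lowest METH library in 33, or 76.7%, where it was so in 66.6% of the genes of the table with a positive fold change. METH 3 also had the lowest share of its reads on the genes of the table, and the part of this in the results was not tested.

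**Figure D4:**
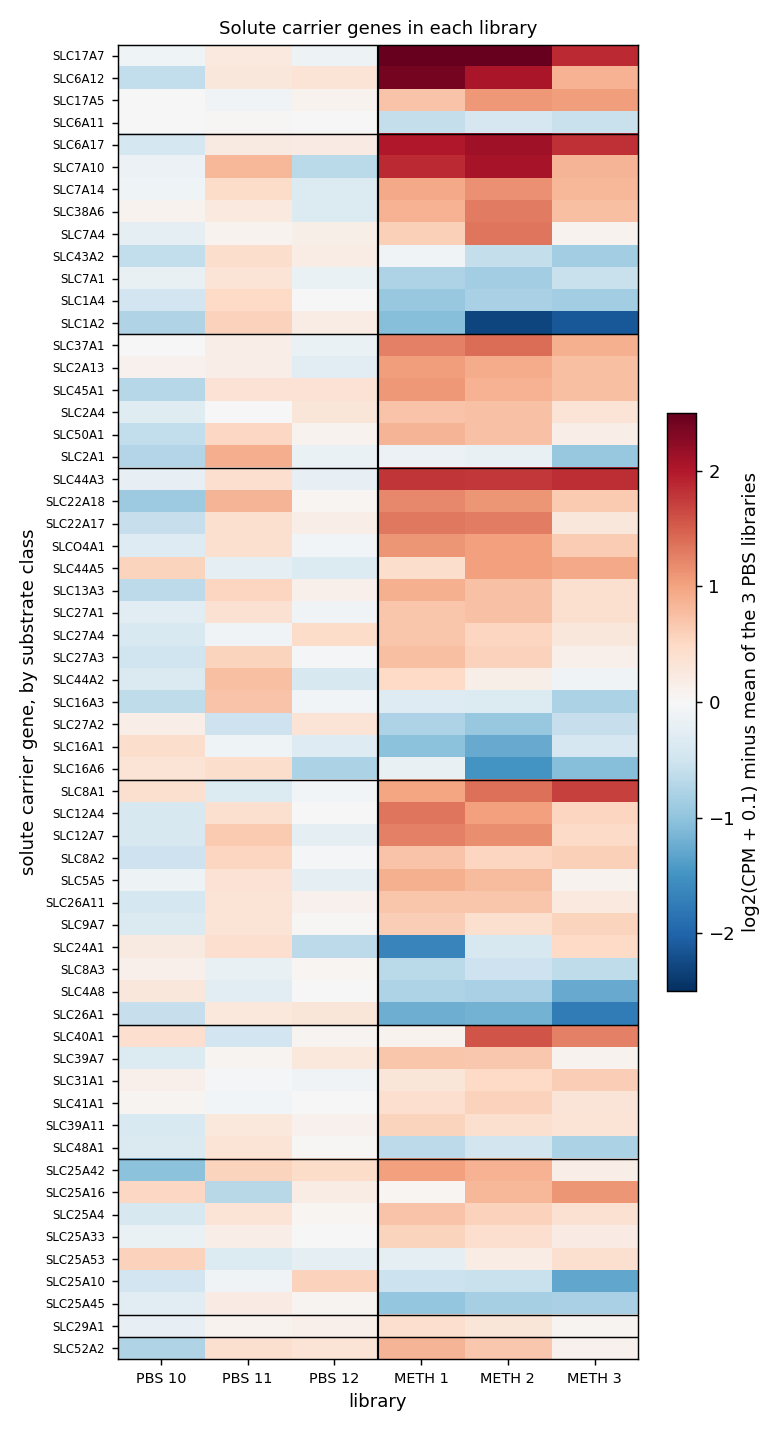
Difference of log2(CPM + 0.1) from the mean of the 3 PBS libraries (colour scale, red higher and blue lower, limited to 2.5 in either direction) for 59 carrier genes (rows, by substrate class) in the 6 libraries (columns). METH 3 is paler than METH 1 and METH 2 in most rows that are red, and PBS 11 is redder than PBS 10 in most rows.

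The number of carrier genes called depended on single libraries. Without METH 2 there were 8 up-regulated and 3 down-regulated carrier genes, without METH 1 there were 11 and 3, and without PBS 12 there were 14 and 9. Without PBS 10, PBS 11 or METH 3 the carrier counts were 18 and 13, 30 and 11, and 26 and 10. Counts over all genes of the table fell as well, from 1366 and 1467 to 412 and 563 without METH 2. They were 491 and 628 without METH 1 and 747 and 854 without PBS 12. The carrier genes that passed in the full comparison and with each library left out numbered 11 (18.3%, where 19.5% of the table did), 8 of them higher and 3 lower. The higher ones were SLC17A7, SLC6A12, SLC17A5, SLC6A17, SLC44A3, SLCO4A1, SLC37A1 and SLC8A1, and the lower ones SLC1A2, SLC4A8 and SLC26A1.

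**Figure D5:**
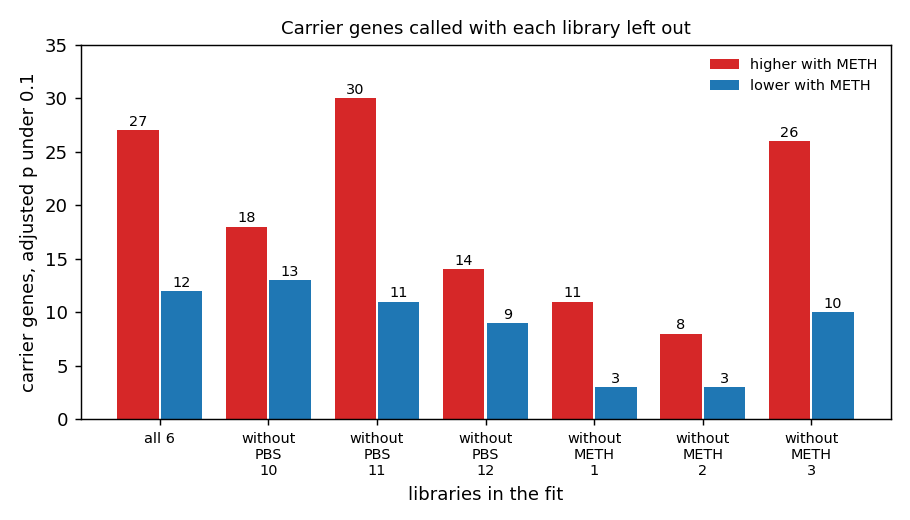
Number of carrier genes with a limma adjusted p-value under 0.1 (y axis), higher (red) and lower (blue) with METH, with all 6 libraries and with each library left out (x axis). The counts fall from 27 and 12 to 11 and 3 without METH 1 and to 8 and 3 without METH 2. Those of all genes of the table, not drawn, fall from 1366 and 1467 to 491 and 628 and to 412 and 563.

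The proteins that set up the gradients carriers run on were read from the same comparison. The beta subunit genes ATP1B1 and ATP1B2 of the sodium pump were up-regulated (log2 fold changes 1.72 and 1.04). ATP1B1, the common beta subunit, had 112, 111 and 95.0 CPM with PBS and 337, 350.1 and 357 CPM with METH (SE 0.195, limma adjusted p = 0.00219), a wide gap between tight groups. Of 6 genes of the vesicular and lysosomal proton pump 5 were up-regulated (ATP6V0A1, ATP6AP1, ATP6V1D, ATP6V0E1 and ATP6V1E1, log2 fold changes from 0.45 to 0.80), and 1, the readthrough gene ATP6V1G2-DDX39B, was down-regulated (-0.79). MPC2, a subunit of the mitochondrial pyruvate carrier, was up-regulated (0.66). Of the 6 genes of kinases, their scaffold and a ligase that act on ion cotransporters, WNK4, CAB39L and STK39 were up-regulated (1.12, 0.58 and 0.40) and SGK1 was down-regulated (-1.14), while WNK2 and NEDD4 did not pass. The level of WNK4 was under 1 CPM in both groups (mean 0.144 CPM with PBS and 0.422 CPM with METH). Some of these calls were close to the threshold, with limma adjusted p-values of 0.0902 for ATP6V0A1, 0.0906 for CAB39L and 0.0986 for STK39.

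Other transport genes gave mixed counts. Of 4 nucleotide sugar carrier genes and relatives with other family letters, SLC35B3 and SLC35D2 were up-regulated (0.59 and 0.91), SLC35D3 was down-regulated (-1.56) and SLC35G2 did not pass. The 3 genes of sideroflexins and uncoupling proteins in the table, SFXN2, SFXN5 and UCP2, were down-regulated (log2 fold changes -1.01, -0.93 and -0.82). Groups of SFXN2 and UCP2 overlapped, as did those of SLC35B3 (limma adjusted p = 0.0947). Among 4 metallothionein and iron genes, the transferrin receptor gene TFRC was up-regulated with overlapping groups (0.86). The metallothionein genes MT2A and MT1X were down-regulated (-0.64 and -0.87), and FTL did not pass. Of 6 genes of the ABC family, whose transporters split ATP to move their substrates and which also holds the ribosome recycling factor gene ABCE1, ABCB4, ABCC5 and ABCG4 were up-regulated (1.06, 0.63 and 1.03) and none was down-regulated. Every gene of these lists comes from the same selected table, in which 33.3% of genes were up-regulated and 35.8% down-regulated.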

How the data were processed

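Transcripts of 6 SH-SY5Y libraries, 3 given METH and 3 given PBS, were sequenced by the authors on an Illumina HiSeq platform. The authors deposited 1 table of 4101 genes. Its expression columns are headed FPKM, but 99.9% to 100% of the values of a column were whole multiples of 1 step shared by every gene (within 0.1 read and rounding). They are therefore CPM, and the test planned for FPKM was run on the deposited CPM values. Columns with the authors' own comparison by DESeq2 (ratio and log2 fold change, p-values, marks of significance) and with group means were not used. Every gene is marked as significant by the authors, so the table is selected on the contrast tested. The aligner, counting tool, strand setting, genome build and DESeq2 version of the authors are not given in the sources used here. The steps give library totals of 85.67 to 110.77 M reads, of which 20027072 to 25449507 lie in the table. Counting error is thus small except in genes with few reads.

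Log2(CPM + 0.1) was fitted in limma 3.58.1 (R 4.3.3) with a trended prior and without pairs, over all 4101 genes, with Benjamini-Hochberg adjustment and a threshold of 0.1. The labels do not say that libraries came from separate cultures, so p-values reflect the spread between these libraries, which may be technical. Substrate classes came from general knowledge. In each class, values per library are given for up to 4 genes a direction that passed the threshold, reached 1 CPM on average in either group and had groups apart (by size of change), and for the 2 genes with the highest CPM per kilobase of exon. Outside this rule, SLC6A17, SLC7A10 and SLC1A2 and the library values of SLC12A7, SLC40A1, SLC2A4, SLC25A33 and the genes that are no carriers were picked once the values had been seen. The members and lists were chosen with earlier results of these data known. Values of a few genes are not reported here.

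Alternatives were pseudocounts of 1 and 0.01, a minimum of 1 CPM, no trend, median scaling, a threshold of 0.05, adjustment over 20000 tests, omission of each library, and edgeR 4.0.16 (quasi-likelihood, with and without TMM) and DESeq2 1.42.0 on the reads recovered from the steps. Limma with the main settings, edgeR with TMM and DESeq2 were run on simulated data, and the other settings were not. Gene positions and exon lengths are those of GENCODE release 29, in which 4093 identifiers were found. Exons are shared with another gene on the same strand in 8 carrier genes and on the other strand in 27. Python 3.11.15 with pandas 2.3.3, numpy 2.4.6 and matplotlib 3.10.9 was used for the rest.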

Additional observations from a re-analysis of the deposited data

How the results depend on the processing

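Beside 27 up-regulated and 12 down-regulated carrier genes (1366 and 1467 of all genes), a threshold of 0.05 gave 13 and 8 carrier genes (696 and 783 of all genes), and adjustment over 20000 tests gave 4 and 0 (219 and 191 of all genes). The 0 is for limma with that adjustment, where edgeR with TMM and DESeq2 without it called 13 and 13 down-regulated carrier genes and 12 had an unadjusted limma p-value under 0.05. With 1 library left out the carrier counts ranged from 8 to 30 up-regulated and from 3 to 13 down-regulated, and those of all genes from 412 to 1551 and from 563 to 1368. The lowest counts came without METH 2, and counts were also low without METH 1 (11 and 3 carrier genes, 491 and 628 of all genes) and without PBS 12 (14 and 9, 747 and 854). The other settings kept the carrier counts within 1.5 times, at 23 and 13 with edgeR and TMM, 25 and 12 with edgeR without TMM, 26 and 13 with DESeq2, 28 and 12 with a pseudocount of 1, 25 and 11 with a minimum of 1 CPM, and 23 and 12 without a trend. Of the 39 carrier genes called, 35 passed with edgeR and TMM (not SLC31A1, SLC41A1, SLC44A5 and SLC13A3) and 37 with DESeq2 (not SLC41A1 and SLC44A5). With 1 library left out the sign turned in 4 genes that were not called, SLC24A1 (log2 fold change -1.02 without METH 3 to 0.0492 without METH 1), SLC25A53 (-0.0533 without PBS 11, -0.019 without METH 3, up to 0.41 without PBS 10), SLC44A2 (-0.0067 without PBS 12 to 0.56 without PBS 11) and SLC2A1 (-0.80 without PBS 10 to 0.0218 without PBS 11). The causes were not tested. No paired analysis was possible because the PBS columns are numbered 10 to 12 and share no number with the METH columns.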

Other observations

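Summed over its 4 members, which leave out SLC18A2 and SLC6A2, the neurotransmitter class stood at 11.4, 12.6 and 12.8 CPM in the PBS libraries. In the METH libraries it stood at 25.3, 26.1 and 18.4 CPM. The amino acid class stood at 71.4, 117 and 84.5 CPM with PBS and at 63.3, 60.4 and 60.8 CPM with METH. These were the class sums of several genes, with the metal class (94.4 to 123.63 CPM with PBS, 123.723 to 162 CPM with METH), whose groups did not overlap. The groups of the metal class nearly touched, and each sum rests mainly on its most abundant genes. The sum over all 60 carrier genes was 799 to 1342 CPM with PBS and 1060 to 1524 CPM with METH, so its groups overlapped. The coefficient of variation between the 3 libraries of a group had a median over the 60 genes of 29.9% with PBS and 17.9% with METH. No test was made on these values.

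Some genes that share exons with carrier genes are in the table as well. INTS3, which shares 8.3% of the exonic length of SLC27A3 on the same strand, was down-regulated (log2 fold change -0.75, limma adjusted p = 0.0246) while SLC27A3 had a positive log2 fold change of 0.49 that did not pass. SLC16A1-AS1, which shares 3.3% of the exonic length of SLC16A1 on the other strand, was down-regulated as SLC16A1 was (log2 fold change -0.76, limma adjusted p = 0.0981). SLC27A2 shares 19.9% of its exonic length with ATP8B4 and SLC26A1 shares 12.4% with IDUA, both on the other strand and neither partner in the table.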
